A study of Mus musculus with 2 samples.

Results

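Oxidative phosphorylation is carried out by the respiratory chain and the ATP synthase of the inner mitochondrial membrane, and its subunits are encoded in 2 genomes. The set described here was chosen by gene symbol: every row of the deposited matrices whose name starts with mt-, Nduf, Uqcr, Atp5 or Cox4 to Cox8, with 1 name marked as a pseudogene left out. This gave 102 of the 32285 genes, of which 13 are encoded by mitochondrial DNA and 89 by nuclear DNA. The nuclear members comprised 38 genes named for complex I, 8 complex I assembly factors, 8 genes of complex III, 18 of complex IV and 17 of complex V. The mitochondrial members comprised 7 genes of complex I, 1 of complex III, 3 of complex IV and 2 of complex V. All 102 had a position on GRCm38 in GENCODE vM21.

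Complex I takes electrons from NADH, complex III passes them from ubiquinol to cytochrome c, complex IV hands them to oxygen, and complex V uses the resulting proton gradient to make ATP. The mitochondrial genes lie on the circular mitochondrial chromosome, are transcribed as long polycistronic RNAs by a polymerase of their own and encode core membrane subunits. The nuclear members are transcribed gene by gene and their proteins are imported, so a complete complex needs both genomes. Immune cells differ in how far they rely on this pathway, and neutrophils are known to hold few mitochondria and to depend largely on glycolysis.

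The RNA of single cells was counted in droplets, from live CD45+ (leukocyte) cells sorted out of tumors that MC38 cells had formed in WT mice. MC38 is a colon carcinoma line of the mouse. The Control library came from tumors that were not irradiated, and the IR library from tumors that received 1 local dose of 20 Gy and were collected 4 days later. In each group several tumors were pooled into 1 library, so there was no replicate, and no p-value is given. The labels also name the cell type CD45+CD11b+Ly6Chi for both libraries, whereas the sort they describe was on CD45, and both libraries held T and NK cells. Every interval below is an exact 95% counting interval (Poisson for levels, Clopper-Pearson for shares) or, for a log2 ratio, its normal approximation, and covers counting error only.

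After barcodes with under 1000 unique molecular identifiers (UMIs, counts of distinct captured RNA molecules) or over 25% mitochondrial UMIs were left out, 4679 Control and 3410 IR barcodes remained, with a median of 7302 and 8268.5 UMIs. The mitochondrial limit removed 296 Control barcodes (5.95%) and 96 IR barcodes (2.74%). The libraries shared 7 barcodes. Barcodes were assigned to lineages by marker genes, none of which is a member: 721 Control and 1126 IR barcodes to the monocyte gate, 1812 and 380 to the macrophage gate, 622 and 479 to the T gate, 234 and 381 to the NK gate and 150 and 182 to the DC (dendritic cell) gate. Smaller gates held neutrophils (25 and 183), mast cells or basophils (35 and 60), stromal cells (86 and 72) and B cells (19 and 8), while 631 and 381 barcodes with markers of several lineages and 344 and 158 without enough markers were set aside. The markers below defined the gates, so their levels describe the gates and are no check of them. The T cell receptor subunit Cd3e was at 571 and 428 UMIs per 1000000 nuclear UMIs (CPM) in the T gate. It was at most at 2.84 CPM in the monocyte and macrophage gates. The complement gene C1qa was at 3028 and 2329 CPM in the macrophage gate. The DC gate was led by Ccr7 (3026 and 3019 CPM) and Fscn1 (2185 and 3030 CPM). The cross-presenting DC marker Xcr1 was at 15.7 and 5.42 CPM, so the gate held mainly Ccr7-positive DCs. The stromal gate was named for collagen genes and Sparc, with Col3a1 at 2785 and 1850 CPM but Col1a1 at 119 and 34.6 CPM. A CD45+ sort should hold few such cells, and whether they were stromal or tumor cells was not tested. Genes from the marker lists of other lineages were not absent and moved between the libraries. The 6 monocyte markers summed to 823 CPM in Control and 1521 CPM in IR in the macrophage gate, with 4 of 6 higher, while the 3 C1q genes summed to 8523 and 6836 CPM there. In the T gate the monocyte markers summed to 1573 and 2990 CPM and the 6 neutrophil markers to 7.07 and 370 CPM, and in the NK gate to 1342 and 2068 CPM and 6.98 and 158 CPM. The genes of a list did not all move alike: in the T gate Ly6c2 was at 664 and 1131 CPM and Ccr2 at 267 and 236 CPM. Whether such UMIs came from the gated cells themselves or from other cells was not tested. The part of these genes in the results below was not tested either. All gates rest on the same pair of libraries and are not independent of each other.

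The mitochondrially encoded genes took a smaller share of the RNA in the irradiated tumors in each of the 5 large gates. In macrophages the 13 mt- genes made up 6.01% of UMIs (5.998 to 6.02) in Control and 3.85% (3.83 to 3.87) in IR, a log2 difference of -0.64. In DCs the share was 4.09% in Control and 2.27% in IR (log2 -0.85), the widest gap of these gates. Monocytes went from 4.54% to 3.59% (log2 -0.34), NK cells from 4.37% to 3.36% (-0.38) and T cells from 4.39% to 3.60% (-0.29). In each of the 5 gates the counting intervals of the libraries did not overlap. Stromal cells (3.86% and 2.98%) and mast cells or basophils (2.93% and 2.37%) were also lower in IR. The median mast cell or basophil barcode was not lower, at 1.89% in Control and 1.98% in IR.

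Neutrophils had the lowest mt- share of all gates and, unlike the 5 large gates, a higher one in IR. Their mt- share was 0.755% (0.675 to 0.841) over 25 Control barcodes and 1.83% (1.79 to 1.86) over 183 IR barcodes, a log2 difference of 1.28. The median barcode moved far less, from 0.261% to 0.344%. Genes of the marker lists moved with it: the 6 monocyte markers summed to 1558 CPM in Control and 2921 CPM in IR in this gate, 5 of 6 were higher and 3 were at 0 in Control, while the 6 neutrophil markers summed to 97175 and 58788 CPM. Their part in the result was not tested. The cluster led by S100a9 and S100a8 held all 208 neutrophil barcodes together with 52 of the monocyte gate, 12 of the macrophage gate, 1 of the NK gate, 19 with mixed markers and 22 ungated, and its share was 3.79% in Control and 2.71% in IR. B cells, with 19 and 8 barcodes, also had a higher share in IR, at 5.73% and 7.81%.

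**Figure D1:**
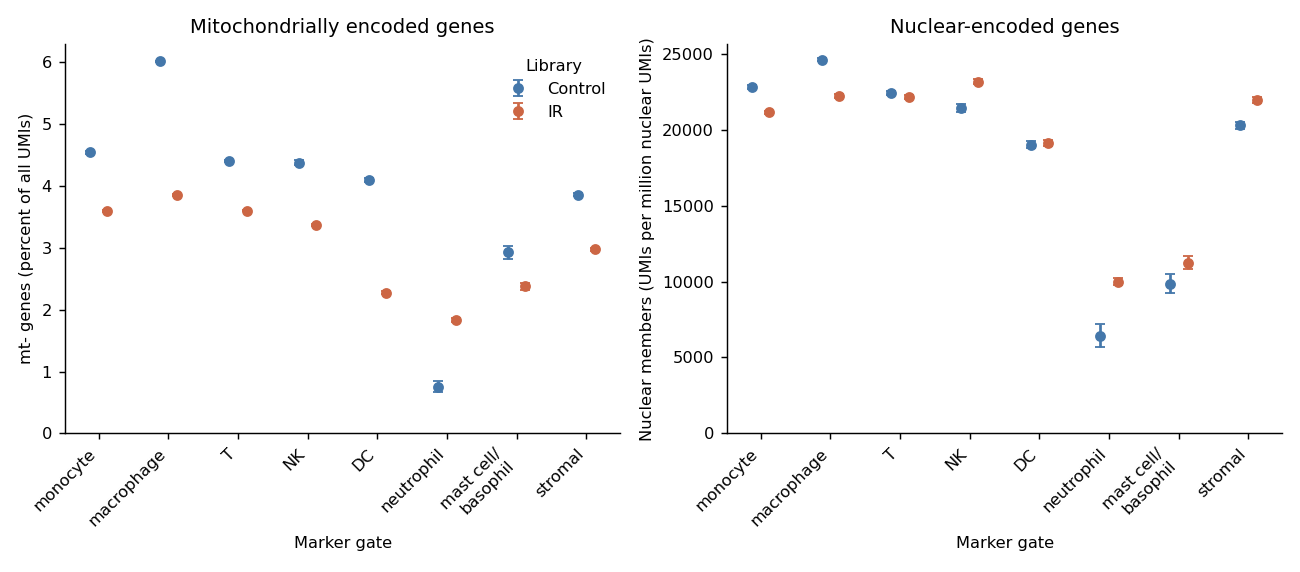
Summed level of the mt- genes as a percent of all UMIs (left) and of the 89 nuclear members per 1000000 nuclear UMIs (right) in 8 marker gates, for the Control and IR libraries; points are sums over the barcodes of a gate and bars are 95% counting intervals. The mt- share of macrophages was 6.01% in Control and 3.85% in IR, whereas their nuclear sum was 24601 and 22202.

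The order of the lineages by mt- share, B cells left aside, also differed between the libraries. In Control, macrophages were highest, followed by monocytes, then T and NK cells, whose intervals overlapped, then DCs (4.09%) and stromal cells (3.86%). In IR, macrophages were again highest, T cells (3.60%, 3.58 to 3.61) and monocytes (3.59%, 3.58 to 3.61) could not be separated, and DCs stood below mast cells or basophils.

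Single barcodes showed the same direction in the 5 large gates, with broad overlap. The median macrophage barcode held 5.77% mt- UMIs in Control (middle 50% from 4.09 to 8.20) and 3.61% in IR (2.25 to 5.22). The median DC barcode held 3.38% and 1.93%, and the median monocyte barcode 3.99% and 3.43%. Macrophages with over 10% mt- UMIs made up 16.6% of the gate in Control and 6.84% in IR, and monocytes 7.35% and 5.42%.

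**Figure D2:**
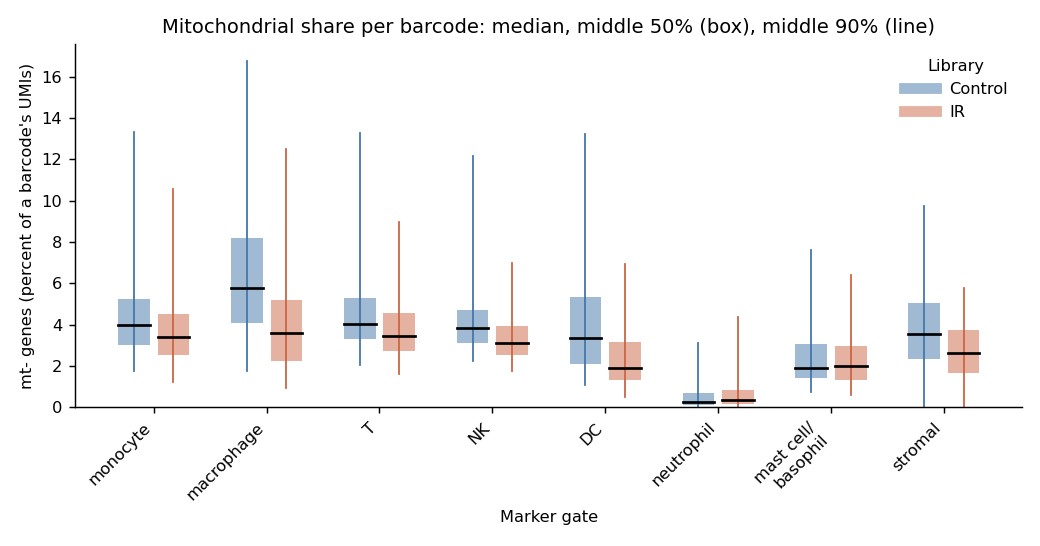
Percent of UMIs from mt- genes per barcode in 8 marker gates for the Control and IR libraries; the black line is the median, the box the middle 50% of barcodes and the thin line the middle 90%. Median macrophage barcodes held 5.77% in Control and 3.61% in IR, and the median neutrophil barcode was under 1 percent in both.

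A share can be lower because fewer mitochondrial or more nuclear molecules were captured, and here the barcodes of the IR library were deeper. The mean number of mt- UMIs per macrophage barcode was 548 in Control and 430 in IR, while nuclear genes gave 8564 and 10733. DCs likewise had fewer mt- UMIs per barcode in IR (326 and 236) and more nuclear ones (7640 and 10129). Monocyte barcodes had slightly more mt- UMIs in IR (294 and 311) beside 6181 and 8342 nuclear ones, and T cells 335 and 457 beside 7280 and 12246. The difference in share thus came with fewer mitochondrial molecules per barcode in macrophages and DCs, and with a larger gain of nuclear than of mitochondrial molecules in monocytes, T and NK cells. Whether the depth of the libraries or RNA content per cell set these numbers cannot be told apart. Damage to the cells was not measured, and its part was not tested. The macrophage log2 difference was -0.74 with no mitochondrial limit and -0.54 with a limit of 10%.

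The gap depended on the depth of the barcodes. Of 18 combinations of gate and depth with at least 20 barcodes in each library, 14 had a lower mt- share in IR, with log2 differences from -0.92 to 0.20. Among barcodes with 6000 to 12000 UMIs all 5 gates were lower in IR: DCs by a log2 of -0.92, macrophages -0.73, monocytes -0.43, NK cells -0.43 and T cells -0.22. Among monocytes the direction turned in shallow barcodes, with 7.38% in Control and 8.46% in IR at 1000 to 3000 UMIs (log2 0.20) and 4.11% and 4.54% at 3000 to 6000 UMIs (0.15). DCs with 3000 to 6000 UMIs, 41 and 22 barcodes, and T cells with 1000 to 3000 UMIs turned as well (0.20 and 0.16). Macrophages were lower in IR at every depth, with log2 differences from -0.30 to -0.73.

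**Figure D3:**
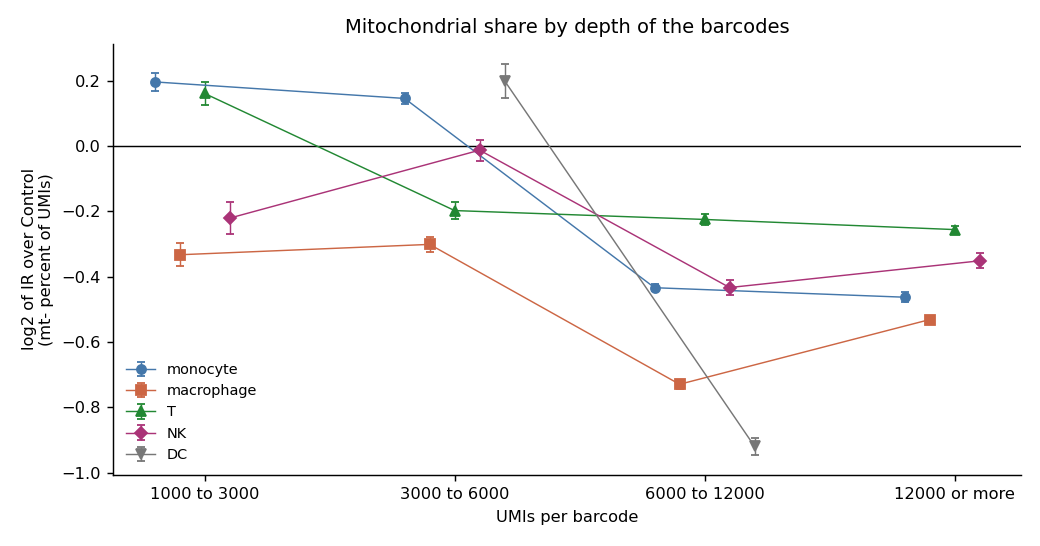
Log2 of the IR over the Control mt- share in the 5 large gates within 4 ranges of UMIs per barcode, for combinations with at least 20 barcodes in each library; bars are 95% counting intervals and the horizontal line marks equal shares. All values from 6000 UMIs up lie below 0, and the monocyte values below 6000 UMIs lie above it.

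The difference was also seen without cycling cells and within most clusters. Cycling barcodes (at least 3 UMIs of cell-cycle genes after thinning to 1000 UMIs) made up 12.6% of macrophages in Control and 3.42% in IR, and with them left out the macrophage share was 6.04% and 3.80% (log2 -0.67). The barcodes were also clustered without the members, and of the 19 clusters with at least 20 barcodes in each library 18 had a lower mt- share in IR, with a median log2 of -0.40. The exception was cluster 13, led by Hp, Ifitm6 and Ace, at 3.91% in Control and 4.06% in IR. Of its barcodes 91.2% were of the monocyte gate, and it held 29.1% of Control and 20.8% of IR monocytes. Within that gate its share was 3.81% and 4.05% (log2 0.09, interval 0.07 to 0.10), against the direction of the whole gate. Different clusters filled the gates: 37.4% of IR macrophages but 14.3% of Control macrophages lay in cluster 2 (led by hemoglobin genes, Cxcl9 and Clec5a), where the share of the gated barcodes was 6.02% and 3.91%. For monocytes, 38.9% of IR but 14.6% of Control barcodes lay in cluster 3, led by Slpi and interferon-induced genes such as Rsad2, where the gap was only 3.75% and 3.36% (log2 -0.16). Within the DC gate the Fscn1 and Ccr7 cluster had 3.84% and 1.92% (log2 -1.002). Cluster 4, led by T cell genes such as Cd3d and Trac, held 613 of the 1012 barcodes set aside for mixed markers. It also held 284 barcodes of the T gate. Its share was 5.43% in Control and 3.79% in IR (log2 -0.52), and that of all mixed barcodes 5.37% and 3.78% (-0.51). Its T gate barcodes alone had a log2 of -0.38.

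The free RNA of the suspension held fewer mt- UMIs than the 5 large gates. Droplets with 3 to 67 UMIs in Control and 3 to 40 in IR, which hold mostly free RNA, had mt- shares of 1.23% and 1.51%. From the UMIs of collagen genes and Sparc, which these immune lineages should lack, the free RNA was put at 10.3% of the macrophage UMIs in Control and 6.20% in IR, at 9.57% and 4.21% in monocytes and at 14.8% and 9.48% in DCs. With that RNA subtracted the log2 differences were -0.71, -0.41 and -0.96, each further from 0. In T and NK cells, with free RNA put at 2.98% and 3.98% and at 6.28% and 7.81%, they stayed at -0.29 and -0.38. These estimates rest on few marker UMIs: 144 and 25 in macrophages, 38 and 39 in monocytes, 15 and 17 in DCs. T cells had 12 and 23, and NK cells 8 and 28.

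The individual mt- genes did not move by the same amount. The gene mt-Nd1 (chrM:2751-3707, plus strand), a core membrane subunit of complex I, was at 3356 per 1000000 of all UMIs in Control macrophages and 1705 in IR, a log2 difference of -0.98. The neighbouring subunit gene mt-Nd2 (chrM:3914-4951) was at 2020 and 1034 in macrophages (log2 -0.97). By contrast mt-Co1 (chrM:5328-6872), the catalytic subunit of complex IV, was at 13225 and 9604 (log2 -0.46). Monocytes showed the same spacing, with mt-Nd1 at 2400 and 1472 (log2 -0.71), mt-Nd2 at 1514 and 968 (-0.65) and mt-Co1 at 9850 and 8652 (-0.19). In DCs mt-Nd1 was at 1761 and 845 (-1.06) and mt-Co1 at 10243 and 6431 (-0.67). T and NK cells had narrower spacing, with mt-Nd1 at -0.46 and -0.43 and mt-Co1 at -0.23 and -0.40.

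The remaining abundant genes fell between or near these values. The complex IV subunits mt-Co2 and mt-Co3 differed by -0.55 and -0.72 in macrophages and by -0.27 and -0.37 in monocytes. The ATP synthase proton channel subunit mt-Atp6 differed by -0.76 in macrophages, -0.38 in monocytes and -1.02 in DCs, and cytochrome b of complex III, mt-Cytb, by -0.64, -0.36 and -0.94. The complex I subunits mt-Nd4 and mt-Nd5 differed by -0.62 and -0.54 in macrophages and by -0.27 and -0.43 in T cells. A small subunit of complex I, mt-Nd3, was the only gene with at least 100 UMIs in each library and gate that was higher in IR in any large gate, in NK cells (147 and 172, log2 0.23, interval 0.01 to 0.45) and T cells (149 and 157, log2 0.08, interval -0.06 to 0.22).

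Within the mitochondrial RNA the balance therefore shifted towards mt-Co1 in most gates. Its share of mt- UMIs was 22.0% in Control macrophages and 24.9% in IR macrophages, 21.7% and 24.1% in monocytes and 25.04% and 28.3% in DCs, while in NK cells it was 20.5% and 20.2%. The share of mt-Nd1 was 5.58% and 4.43% in macrophages, 5.29% and 4.10% in monocytes and 5.19% and 4.998% in NK cells. The genes mt-Atp8 and mt-Nd4l overlap mt-Atp6 and mt-Nd4 on the same strand, so their UMIs (52 and 70 of mt-Atp8, 277 and 464 of mt-Nd4l in monocytes) are uncertain. The only member on the minus strand of the mitochondrial chromosome, mt-Nd6, gave 13 and 33 UMIs in monocytes, 89 and 14 in macrophages and, in DCs, 0 and 7, where 0 allows up to 3.09 per 1000000 UMIs.

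**Figure D4:**
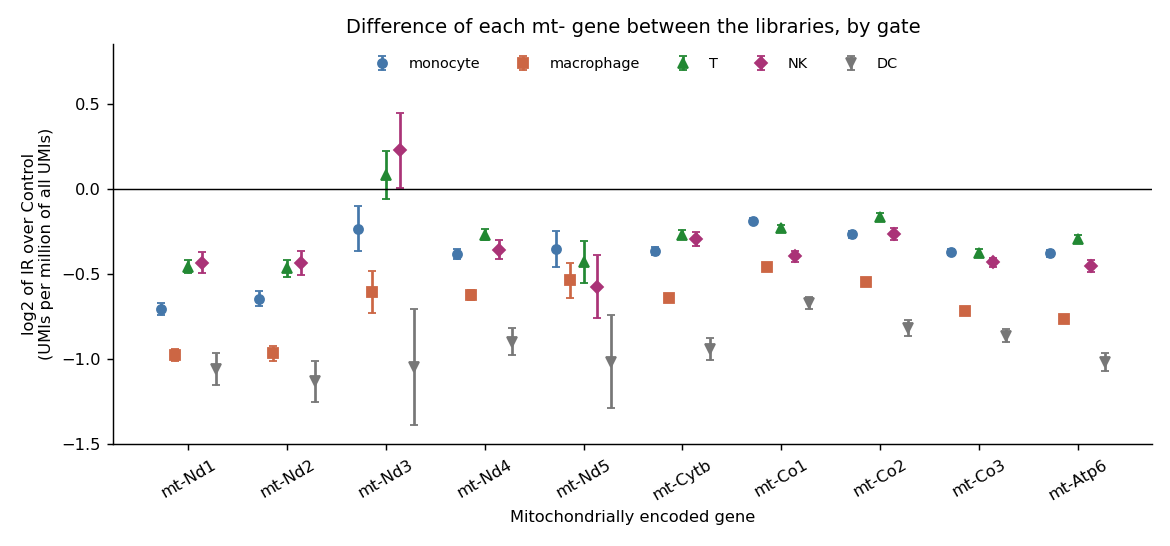
Log2 of IR over Control, in UMIs per 1000000 of all UMIs, for 10 mt- genes in the 5 large gates; bars are 95% counting intervals and the horizontal line marks equal levels. Points for mt-Nd1 and mt-Nd2 lie lower than those for mt-Co1, and mt-Nd3 lies above 0 in NK and T cells.

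The nuclear members, scaled to nuclear UMIs so that the mt- genes could not move them, differed far less and not in the same direction in all lineages. Their sum was 24601 CPM (24523 to 24679) in Control macrophages and 22202 CPM (22057 to 22347) in IR, a log2 difference of -0.15. Monocytes were lower as well, with 22784 and 21126 CPM (log2 -0.11). NK cells were higher in IR, with 21421 and 23141 CPM (log2 0.11), as were stromal cells with 20281 and 21970 CPM (0.12). T cells (22428 and 22161 CPM, log2 -0.02) and DCs (19004 and 19112 CPM, log2 0.01, interval -0.02 to 0.03) hardly differed. The sums for monocytes and T cells depended on the scaling: with trimmed mean of M-values (TMM) factors, which moved the monocyte ratios by 0.10, they were -0.01 and 0.05.

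Neutrophils, mast cells and basophils had the lowest nuclear sums in both libraries. Neutrophils had 6395 CPM over 25 Control barcodes and 9977 CPM over 183 IR barcodes (log2 0.64), and mast cells or basophils 9858 and 11245 CPM (0.19). The monocyte markers also rose in the neutrophil gate, from 1558 to 2921 CPM, and their part in its nuclear sum was not tested. The order of the other lineages, B cells left aside, was led by macrophages in Control and by NK cells (23141 CPM) in IR, where macrophages (22202 CPM), T cells (22161 CPM) and stromal cells (21970 CPM) had neighbouring intervals that overlapped. Cycling macrophages had a higher sum than the others, 26803 against 24103 CPM in Control.

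The number of mt- UMIs per nuclear member UMI gives the balance of the genomes. It was 2.60 in Control macrophages and 1.80 in IR, 2.09 and 1.76 in monocytes and 2.24 and 1.22 in DCs. T cells had 2.05 and 1.68, and NK cells 2.14 and 1.503. In stromal cells the ratio was 1.98 and 1.40. The ratio was thus lower in IR in each of these gates, by factors of 0.54 (DCs) to 0.85 (monocytes). Mast cells or basophils were lower as well (3.06 and 2.16). Neutrophils (1.19 and 1.86, over 25 and 183 barcodes) and B cells (3.41 and 5.72, over 19 and 8 barcodes) were higher in IR.

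By complex, monocytes and macrophages were lower in IR in each of complexes I, III, IV and V, with the widest gaps in complexes III and V. In macrophages the complex V genes summed to 8259 and 7152 CPM (log2 -0.21), with 14 of 17 lower, and the complex III genes to 2496 and 2169 CPM (-0.20), with 8 of 8 lower. Complex I (6771 and 6333 CPM, log2 -0.10) and complex IV (6900 and 6381 CPM, -0.11) differed less. Monocytes had complex V at 7610 and 6843 CPM (-0.15), complex III at 2338 and 2114 CPM (-0.15) and complex I at 6390 and 6107 CPM (-0.07). The TMM shift of 0.10 is larger than the monocyte differences in complexes I and IV, so their direction depends on the scaling. NK cells were higher in IR, with complex I at 5925 and 6463 CPM (0.13, 31 of 37 tested genes higher), complex IV at 5815 and 6287 CPM (0.11) and complex V at 7468 and 8081 CPM (0.11), while the complex III interval included 0 (0.06, -0.00 to 0.12). T cells differed by -0.08 in complex III and by 0.03 in complex I. The 8 assembly factors, which build complex I and are not part of it, summed to 148 and 151 CPM in monocytes and 175 and 166 CPM in macrophages, with overlapping intervals.

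Gene by gene, most members had small differences. With a minimum of 20 UMIs over both libraries 86 of 89 nuclear members were measured in monocytes and macrophages, 85 in T cells and 81 each in NK cells and DCs. In monocytes 61 were lower and 25 higher, with a median log2 ratio of -0.09 (of CPM plus 10, which damps low genes, as for all single nuclear genes below) beside -0.05 over all 10482 genes. With TMM scaling the monocyte split was 43 lower and 43 higher, and with lineages from clusters 39 lower and 46 higher. Intervals did not overlap for 28 lower and 2 higher members, and over all genes for 12.2% and 8.34%. In macrophages 64 were lower and 22 higher (median -0.11, all 11249 genes -0.06), with separate intervals for 36 lower and 2 higher members, against 16.6% and 9.01% of all genes. In NK cells 62 were higher and 19 lower (median 0.15, all 9303 genes -0.02), with separate intervals for 16 higher and 2 lower members, against 6.07% and 5.74%. T cells had 46 higher and 39 lower members (median 0.02, all genes -0.04), 9 and 12 of them with separate intervals against 10.1% and 9.75% of all genes. DCs had 55 higher and 26 lower members (median 0.08, all genes 0.01), 3 and 4 of them with separate intervals against 5.77% and 4.46%. Abundant genes have narrower intervals, and the members are abundant, so these shares are not on an equal footing with those of all genes. Among genes with a mean of at least 100 CPM, the medians of members and of all genes were -0.11 and -0.02 in monocytes. They were -0.11 and -0.04 in macrophages, 0.02 and -0.03 in T cells, 0.15 and -0.01 in NK cells and 0.08 and 0.04 in DCs.

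**Figure D5:**
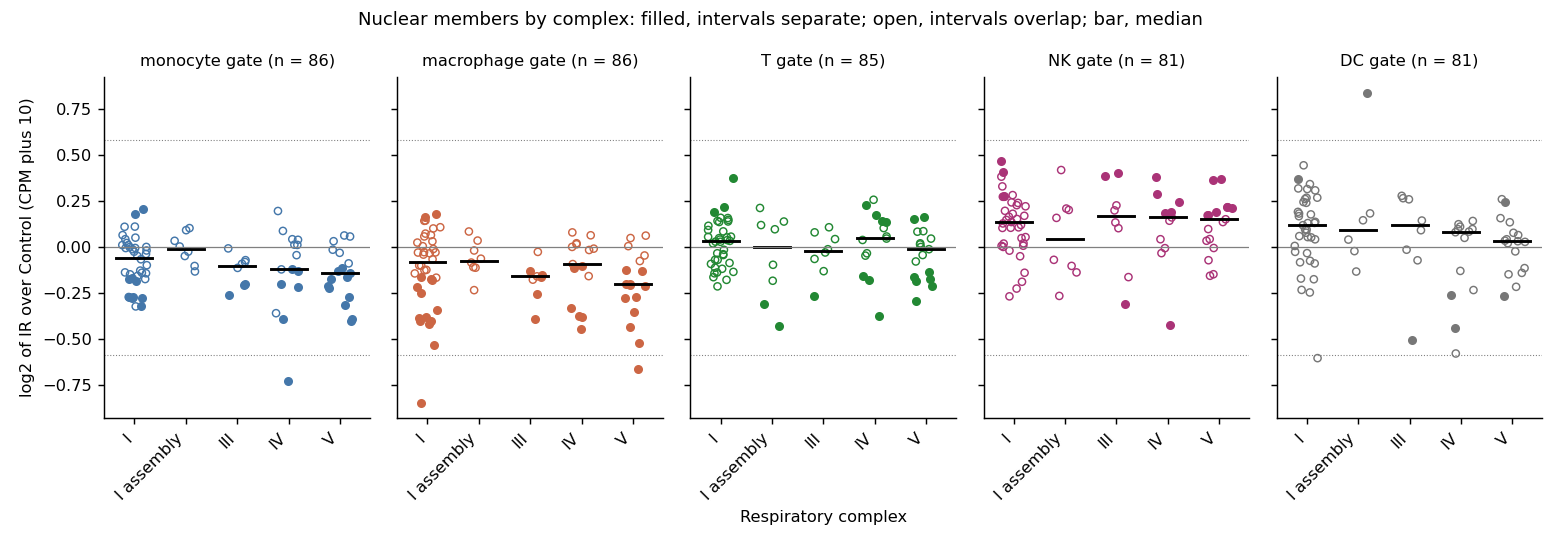
Log2 of IR over Control (CPM plus 10) of the nuclear members with at least 20 UMIs over both libraries, by complex, in the 5 large gates; filled points have counting intervals that do not overlap, bars are medians and dotted lines mark 1.5-fold. Most points lie below 0 in monocytes (not with TMM scaling) and macrophages and above 0 in NK cells.

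Few nuclear members passed 1.5-fold with separate intervals. The call rule gave 0 members higher and 1 lower in monocytes, where it called 2.33% of all genes higher and 1.14% lower, and 0 higher and 2 lower in macrophages, where it called 2.2% and 2.43%. It gave no member in T cells (4.17% of all genes higher, 0.747% lower) or NK cells (3.48% and 2.14%), and 1 higher in DCs (3.09% and 1.89%).

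The ATP synthase gene Atp5g3 (chr2:73908447-73911326, minus strand), which encodes the membrane rotor subunit c, was at 391 CPM (6067 UMIs) in Control macrophages and 243 CPM (991 UMIs) in IR, a log2 difference of -0.66. It was detected in 1517 of 1812 and 296 of 380 barcodes, and the top 5 barcodes held 1.75% and 7.87% of its UMIs. Different clusters filled the gate, however. Cluster 10, whose leading genes include the cell-cycle genes Ube2c and Birc5, had 252 Control and 18 IR barcodes of the gate, with 1520 and 139 of these UMIs. The call remained with cycling barcodes left out. The part of the clusters in the difference was not tested. In monocytes Atp5g3 was at 310 and 232 CPM (log2 -0.40), in T cells at 343 and 295 CPM (-0.21), and in NK cells at 317 and 301 CPM with overlapping intervals. Atp5g1 and Atp5g2 encode the same mature subunit c. Atp5g1 was at 422 and 364 CPM in macrophages (-0.21) and 288 and 326 CPM in NK cells (0.17). Atp5g2 was at 729 and 603 CPM in macrophages (-0.27) and 752 and 806 CPM in NK cells (0.10).

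The other calls rested on few barcodes. Ndufa4l2 (chr10:127514967-127517154, plus strand), a paralog of Ndufa4 known as a hypoxia-induced gene, was at 12.4 CPM (192 UMIs in 42 barcodes) in Control macrophages and 2.45 CPM (10 UMIs in 3 barcodes) in IR. In Control, 5 barcodes held 37.5% of its UMIs, and the call was lost when lineages were taken from clusters. Cox6a2 (chr7:128205435-128206387, minus strand), the isoform of complex IV subunit 6A best known from heart and skeletal muscle, was at 11.7 CPM (52 UMIs in 9 barcodes) in Control monocytes and 3.09 CPM (29 UMIs in 3 barcodes) in IR. All but 3 of these UMIs lay in cluster 15, whose leading genes include Cd209a, Siglech, Ly6d and Ccr9, and which held 6.24% and 4.71% of the monocyte gate. In the DC gate, which shares that cluster, Cox6a2 was at 18.3 and 14.1 CPM. The monocyte call was lost with lineages from clusters and with a minimum of 100 UMIs per gene. Ndufaf7 (chr17:78937136-78948052, plus strand), a methyltransferase that acts in complex I assembly, was at 4.36 CPM (5 UMIs) in Control DCs and 15.7 CPM (29 UMIs in 25 barcodes) in IR, while in monocytes it was at 16.2 and 14.4 CPM. Its call was lost with barcodes from 500 UMIs, without the top 6% of Scrublet (doublet) scores, with lineages from clusters and with a minimum of 100 UMIs per gene.

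Among members with at least 100 UMIs in each large gate, those with the lowest median log2 ratio of their complex over the gates were Cox7a2l, Uqcrh, Atp5a1 and Ndufb5. Cox7a2l (chr17:83501918-83517330, minus strand), known as a factor that can link complexes III and IV into supercomplexes (not examined in these mice), was at 295 and 223 CPM in monocytes, 384 and 295 in macrophages, 365 and 280 in T cells, 358 and 265 in NK cells and 468 and 342 in DCs. The intervals did not overlap in any of the 5 gates, and the log2 ratios ran from -0.37 to -0.44. Uqcrh (chr4:116066965-116075071, minus strand), the hinge subunit of complex III, was at 586 and 488 CPM in monocytes, 599 and 455 in macrophages, 787 and 652 in T cells, 761 and 613 in NK cells and 840 and 589 in DCs, again with separate intervals in each. Atp5a1, the alpha subunit of the catalytic head of ATP synthase, was at 489 and 338 CPM in macrophages (log2 -0.52) and 418 and 317 CPM in monocytes (-0.39), with overlapping intervals in NK cells and DCs. Ndufb5, an accessory subunit of complex I, was at 251 and 185 CPM in macrophages (-0.42) and 215 and 170 CPM in monocytes (-0.32). Of the 73 members that dense, 2 were lower with separate intervals in all 5 gates, beside 1.66% of 3365 genes of that density. With separate intervals 0 were higher in all 5, beside 3.71% of genes. Whatever the intervals, 11.0% of these members were lower and 16.4% higher in all 5 gates, beside 18.1% and 15.5% of genes.

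Those with the highest median were Ndufa3, Atp5k, Cox6b1 and Uqcrq. Ndufa3 (chr7:3617373-3620327, plus strand), a small accessory subunit of complex I, was at 189 and 220 CPM in monocytes, 190.0 and 215 in macrophages, 160.3 and 211 in T cells, 158 and 222 in NK cells and 182 and 222 in DCs. Its intervals were separate in 4 gates and overlapped in DCs. Atp5k, the membrane subunit e of ATP synthase, was at 184 and 240.2 CPM in NK cells (log2 0.36) and 220.4 and 248 CPM in T cells (0.16), but at 305 and 296 CPM in macrophages (-0.04). Cox6b1, which faces the intermembrane space in complex IV, was at 426 and 483 CPM in T cells (0.18) and 399 and 456 CPM in NK cells (0.19), with overlapping intervals in monocytes, macrophages and DCs. Uqcrq, a small subunit of complex III, was at 269.6 and 356 CPM in NK cells (0.39) and 414 and 378 CPM in macrophages (-0.13). Ndufaf8 was the only assembly factor that dense, and was at 63.4 and 49.3 CPM in T cells (-0.31), with overlapping intervals in the other gates.

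Several complex IV subunits have a common and a tissue-restricted isoform, and the restricted ones gave few UMIs here. Cox4i1 was at 1339 and 1063 CPM in macrophages (log2 -0.33) and 1196 and 1041 CPM in monocytes (-0.20), while its paralog Cox4i2, whose protein is known from lung and oxygen-sensing cells, was at 8.31 and 3.43 CPM in macrophages and 6.06 and 8.41 CPM in monocytes. Cox6a1 was at 456 and 348 CPM in macrophages (-0.38) and 335 and 327 CPM in NK cells. Cox7a2 was at 441 and 439 CPM in macrophages and 389 and 430 CPM in T cells (0.14), and its muscle paralog Cox7a1 stayed under 10 CPM in each large gate. Cox6b2, best known from testis, reached 12.2 CPM (14 UMIs) in Control DCs. Cox8a was at 812 and 813 CPM in macrophages, and no UMI of Cox8b, Cox8c or Cox7b2 was found in any large gate, which allows at most 0.24 CPM in Control macrophages and 3.22 CPM in Control DCs. Ndufa4, named for complex I but now counted with complex IV, was at 257 and 228 CPM in monocytes (-0.17) and only 94.7 and 84.8 CPM in macrophages, the lowest of the 5 gates. The 3 subunit c genes, and other members with processed copies in the genome, may share reads with near-identical sequences, and their values are uncertain to that extent.

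Sequence upstream of the nuclear members was searched for motifs known from promoters of this pathway. RefSeq promoter windows (GRCm38.p6, 250 bases before to 50 after the start) were found for 73 of the 89 nuclear members. Matches were exact and on either strand. The palindromic motif of NRF1 was in the window of 7 members (9.59%) and of 1.07% of 27025 genes. The ETS motif (CCGGAAGT), which GABPA reads, was in 5 members (6.85%) and 4.31% of genes, and that of YY1 in 6 members (8.22%) and 0.995% of genes. At least 1 of these 3 was in 18 members (24.7%) and 6.15% of genes. No member held more than 1 of these motifs, and a match is only a description of the window. The 250 bases before the start are printed 5′ to 3′ on the gene's strand for 4 members described above, with the motif in capitals. They are Uqcrh, low in IR in each large gate, with an ETS match on the opposite strand, and Atp5k, Cox6a1 and Atp5g2 with NRF1 matches, of which Atp5k was higher in IR in NK and T cells and Cox6a1 lower in macrophages.
Uqcrh promoter, chr4:116075071-116075320, minus strand: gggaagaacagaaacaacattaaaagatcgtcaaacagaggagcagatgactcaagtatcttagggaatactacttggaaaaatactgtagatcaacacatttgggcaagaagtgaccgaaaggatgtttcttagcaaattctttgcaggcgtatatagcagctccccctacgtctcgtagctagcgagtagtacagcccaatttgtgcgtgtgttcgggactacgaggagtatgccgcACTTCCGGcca
Atp5k promoter, chr5:108434400-108434649, minus strand: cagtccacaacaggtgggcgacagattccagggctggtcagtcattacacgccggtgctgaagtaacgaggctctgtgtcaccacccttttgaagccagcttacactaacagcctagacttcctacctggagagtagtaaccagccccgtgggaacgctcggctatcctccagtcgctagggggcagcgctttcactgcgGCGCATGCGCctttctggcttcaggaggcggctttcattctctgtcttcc
Cox6a1 promoter, chr5:115348959-115349208, minus strand: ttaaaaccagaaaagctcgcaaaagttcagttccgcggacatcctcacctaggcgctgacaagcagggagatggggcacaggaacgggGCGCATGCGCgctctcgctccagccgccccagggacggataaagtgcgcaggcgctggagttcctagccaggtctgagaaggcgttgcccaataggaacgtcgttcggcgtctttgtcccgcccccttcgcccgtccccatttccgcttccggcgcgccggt
Atp5g2 promoter, chr15:102671048-102671297, minus strand: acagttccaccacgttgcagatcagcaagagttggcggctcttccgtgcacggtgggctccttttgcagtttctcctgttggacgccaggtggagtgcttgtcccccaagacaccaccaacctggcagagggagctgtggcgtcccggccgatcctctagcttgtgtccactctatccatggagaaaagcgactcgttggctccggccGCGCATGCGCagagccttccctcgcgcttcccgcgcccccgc
The 3 members printed with the NRF1 motif, of 7 that held it, had different log2 ratios. In macrophages the ratio was -0.38 for Cox6a1, -0.27 for Atp5g2 and -0.04 for Atp5k, and in NK cells it was -0.03, 0.10 and 0.36.

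Other mitochondrial genes, listed by function, gave a background to the members. The tricarboxylic acid (TCA) cycle genes, which supply the NADH, were lower in IR for 16 of 17 in monocytes (median log2 -0.19), 15 of 17 in macrophages (-0.27) and 15 of 17 in T cells (-0.11), and for 6 of 17 in NK cells (0.04) and 7 of 17 in DCs (0.06), with none past the call rule. The 10 genes of electron carriers and complex II were lower for 7 in monocytes, macrophages and T cells and for 4 in NK cells and DCs. The 78 proteins of the mitochondrial ribosome, which translates the mt- genes, had medians of -0.12 in monocytes, -0.04 in macrophages, -0.01 in T cells, 0.13 in NK cells and 0.08 in DCs, and Mrpl22 alone was called (11.9 and 25.8 CPM in NK cells, where 3.48% of all genes were called higher). The 22 genes that transcribe, replicate or process the mitochondrial genome had medians from -0.11 in macrophages to 0.09 in DCs, and the 14 regulators of mitochondrial biogenesis from -0.03 in T cells to 0.02 in DCs, with no call in either list. Carriers of nucleotides and calcium and uncoupling proteins (12 of 13 matched) had medians from -0.10 in macrophages to 0.12 in NK cells, also with no call.

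Assembly factors named outside the rule gave 3 calls among 35 genes, all higher in IR. They were 1 in macrophages (35 tested), 1 in T cells (35) and 1 in DCs (27). The rule called 2.2%, 4.17% and 3.09% of all genes higher in these gates. Cox17, the copper chaperone that serves complex IV, was higher in IR in macrophages (216 and 347 CPM) and T cells (260.4 and 397 CPM), while the complex IV subunit genes differed by -0.11 and 0.00 in these gates. Sco1, a further copper chaperone of complex IV, was at 5.24 CPM (6 UMIs) in Control DCs and 21.7 CPM (40 UMIs) in IR. The 86 genes of the cytosolic ribosome, given as a comparison outside mitochondria, were lower for 80 of 84 tested in monocytes (median log2 -0.30), 79 of 85 in macrophages (-0.21), 75 of 84 in T cells (-0.20), 79 of 84 in DCs (-0.30) and 47 of 83 in NK cells (-0.04). Rpl5 was called lower in monocytes (1100.2 and 703 CPM), and Rps6 (1200 and 779 CPM), Rplp1 (3141 and 2085 CPM) and Rps15 (1305 and 865 CPM) in DCs. The rule called 1.14% and 1.89% of all genes lower in these gates. The cytosolic ribosome summed to 169810 and 136370 CPM in monocytes, and its part in the ratios of the nuclear members was not tested beyond the TMM scaling given above.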

How the data were processed

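Single-cell RNA was measured in 1 Control and 1 IR library, each from pooled tumors. The authors aligned the reads to mm10 and counted UMIs with 10x software: Cell Ranger 6.0.1 in the submitters' processing notes, version 4 in the matrix headers. The deposited values are raw UMI counts per gene and barcode (32285 genes, 1067746 and 990007 barcodes, total 48593879 and 42406461 UMIs), with no cell annotation and no normalization. The kit reads 3′ ends, so levels are not compared between genes.

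Barcodes with at least 1000 UMIs, at least 200 genes and at most 25% mitochondrial UMIs (the study's limit) were kept: 4679 and 3410 barcodes with 41533178 and 37842119 UMIs. Marker UMIs per 10000 nuclear UMIs were divided by their 90th percentile among barcodes with at least 10 UMIs of that list. A lineage needed 3 UMIs from 2 markers and a score of 0.08, and the top score won. Barcodes with a second lineage (T with NK excepted) at 0.5 of the top score were left out as possible doublets. So were barcodes with C1q genes at 0.5 of the top score and at least 3 C1q UMIs. Barcodes under 0.08 but with 3 UMIs from 2 T, NK, B, DC, mast cell or stromal markers were also left out. The remaining barcodes without a lineage needed 3 UMIs from 2 monocyte or C1q markers. They went to the monocyte or macrophage gate by the larger of their Ly6c2-type and C1q UMIs. These thresholds were set after marker counts were seen. Removing the top 6% of Scrublet scores was an alternative.

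UMIs were summed per gate and library. The mt- genes are given per all UMIs and nuclear genes per 1000000 nuclear UMIs (CPM). A gene was called at 20 or more UMIs over both libraries, a 1.5-fold ratio of CPM plus 10 and exact 95% Poisson intervals that did not overlap. With 1 library per group there was no test. Named genes were all mt- genes, called members, the highest and lowest median ratio per complex among members with 100 UMIs in each large gate, 7 isoform groups, and called genes of 8 further lists: electron carriers with complex II, other assembly factors, TCA cycle, mitochondrial genome expression, biogenesis regulators, carriers, and mitochondrial and cytosolic ribosomes. The lists hold 1 symbol that was not matched. Clusters (Leiden) were made without the members. Members and lists were chosen with earlier results of these data known. Python 3.11.15, numpy 2.4.6, scipy 1.17.1, pandas 2.3.3, scanpy 1.11.5, R 4.3.3 and edgeR 4.0.16 (TMM factors only) were used.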

Additional observations from a re-analysis of the deposited data

Results flagged for a closer look

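The nuclear member sum was higher in IR in NK cells (log2 0.11) and lower in macrophages (-0.15), with intervals on opposite sides of 0. The difference between these gates was not tested, and both come from the same pair of libraries.

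The mt- share was higher in IR in neutrophils (log2 1.28, interval 1.12 to 1.43) and lower in each of the 5 large gates, also untested. Neutrophils gave 327 mt- UMIs over 25 Control barcodes and 12572 over 183 IR barcodes, and in the S100a9 and S100a8 cluster, which also held barcodes of other gates, the log2 difference was -0.48. B cells were higher in IR as well (log2 0.45).

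Empty droplets, which enter no comparison between lineages, had a mt- share of 1.51% in IR and 1.23% in Control, the opposite order to that of the 5 large gates.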

How the results depend on the processing

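No paired analysis was possible because each group is 1 library and no test was run. No library could be left out either, and the counting intervals hold no variation between tumors. Over the alternatives chosen at the start, the log2 difference of the mt- share ran from -0.74 to -0.54 in macrophages, -0.41 to -0.22 in monocytes, -0.35 to -0.23 in T cells, -0.41 to -0.32 in NK cells and -0.96 to -0.73 in DCs, and that of the nuclear sum from -0.18 to -0.08 in macrophages and 0.11 to 0.17 in NK cells, each with 1 direction. The nuclear sums of T cells and DCs turned direction and that of monocytes came near 0, so no direction is firm for them. The counts of shares and sums that follow also take in windows of depth chosen after seeing the data. Of 55 values of the mt- share 36 moved by more than the counting interval and 2 turned. Those that turned, in monocytes and DCs, came from these windows. Of 65 nuclear sums 23 moved and 4 turned, and of 75 counts of called members 17 moved. The cause of these moves was not tested. The values that moved or turned follow by setting.

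With at least 3000 UMIs the T cell mt- share was -0.28 and the nuclear sum -0.032. With no mitochondrial limit the mt- share was -0.38 in monocytes, -0.74 in macrophages, -0.33 in T cells, -0.40 in NK cells and -0.87 in DCs, and with a limit of 10% it was -0.29, -0.54, -0.23, -0.34 and -0.73, with the macrophage nuclear sum at -0.16. Lineages were also taken from clusters, with cluster 4, whose most common class was mixed, left out. The mt- share was then -0.27, -0.58, -0.35, -0.41 and -0.96 in the same order and the nuclear sum -0.0090, -0.18, 0.071, 0.16 and -0.021. Without the top 6% of Scrublet scores the mt- share was -0.33 in monocytes and -0.80 in DCs. As a mean over barcodes it was -0.22, -0.62, -0.24, -0.32 and -0.74, with nuclear sums of -0.084 in monocytes and 0.012 in T cells. Without cycling barcodes it was -0.31 in monocytes and -0.67 in macrophages, with the macrophage nuclear sum at -0.13. With free RNA subtracted it was -0.41 in monocytes, -0.71 in macrophages and -0.96 in DCs, with nuclear sums of -0.083, -0.14 and 0.092. Scaled to all UMIs the nuclear sum was -0.095 in monocytes, -0.12 in macrophages, -0.0054 in T cells and 0.035 in DCs. With TMM scaling, which moved all log2 ratios of a gate by 0.10, 0.07, 0.07, 0.06 and 0.01 in the same order, it was -0.0062 in monocytes, -0.082 in macrophages, 0.048 in T cells and 0.17 in NK cells.

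Windows of depth were chosen after seeing the data. Barcodes with 6000 to 12000 UMIs had mt- shares of -0.43, -0.73, -0.22, -0.43 and -0.92 and nuclear sums of -0.20 in macrophages, -0.037 in T cells, 0.088 in NK cells and 0.039 in DCs. Barcodes with 1000 to 6000 UMIs had mt- shares of 0.20, -0.30, -0.10, -0.11 and 0.10, and nuclear sums of 0.033 in T cells and -0.15 in DCs.

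The number of called members was 0 in DCs with at least 500 UMIs per barcode and without the top Scrublet scores, and 0 in monocytes and DCs with a minimum of 100 UMIs per gene. With lineages from clusters it was 0 in monocytes, 1 in macrophages, 2 in NK cells and 0 in DCs. As a mean over barcodes it was 1 in NK cells and 3 in DCs, and with free RNA subtracted 4 in DCs. With a pseudocount of 1 CPM it was 4 in macrophages. With a difference of at least 25% in place of 1.5-fold it was 4 in monocytes, 17 in macrophages, 3 in T cells, 8 in NK cells and 4 in DCs, where 13.7%, 17.7%, 14.6%, 9.8% and 8.27% of all genes were called.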
